A study of Mus musculus with 9 samples.

Results

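Axons are steered and synapses are placed by a small set of secreted and membrane-bound cues and their receptors. The genes described here are the ephrins (Efna and Efnb) and their Eph receptors (Epha and Ephb), the Slits with the Robo receptors, the netrins with Dcc, neogenin (Neo1) and the Unc5 receptors, the netrin-G proteins, and the repulsive guidance molecules Rgma and Rgmb, which bind neogenin. They were chosen by symbol, 41 genes of the 33964 with an annotated transcript in the files, and each gene is represented by its transcript with the highest mean count over the 9 samples. The 41 genes had 162 transcripts in all, 13 genes had a single transcript, and all 41 chosen transcripts were annotated as protein coding.

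Eph receptors are tyrosine kinases that bind ephrins held on the surface of a neighbouring cell, and contact can repel or retain a growth cone and, in the adult, shape dendritic spines. EphA receptors mostly bind the lipid-anchored ephrin-A ligands and EphB receptors the transmembrane ephrin-B ligands, with Epha4 known to bind both kinds. Slits are secreted repellents read by Robo receptors, netrins attract through Dcc and repel where Unc5 is present, and netrin-G proteins are lipid-anchored synaptic adhesion molecules that do not bind Dcc. EphB4 and ephrin-B2 are also known from blood vessels, where they mark veins and arteries respectively.

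The samples were piriform cortex of C57BL/6 wild-type mice, the paleocortex that receives input from the olfactory bulb. Areas were excised from sections with a laser (laser-capture micro-dissection) to take 3 layers, which the labels call A, B and C. Each layer has 3 replicates, and the labels give an age of 8 weeks for every sample, while the methods text gives an older age. No genotype or treatment differs between the groups, so the layer is the only difference the labels name, and no key from the letters to the numbered layers was found. Nothing says whether replicates came from separate mice, so p-values measure the spread between these samples, which may be technical.

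The deposited values are read counts per transcript, with totals between 23104306 and 76471683. Mitochondrial transcripts took 56.4% to 72.6% of the counts in layer A, 13.1% to 30.1% in B and 21.2% to 59% in C. Levels are given as CPM, counts per 1000000 of a library total scaled by TMM, a method that aligns most transcripts between libraries. A floor of 3 counts then lay between 0.0256 and 0.254 CPM, highest in layer A replicate 1, and it covers counting error only, since the reads carried no molecular identifiers. Layer B replicate 3 stood apart from its group. Its Pearson correlations of log2 CPM across transcripts were 0.888 and 0.88 to replicates 1 and 2, which correlated at 0.978 with each other. To layer C replicates 1, 2 and 3, layer B replicate 3 had higher correlations, of 0.917, 0.893 and 0.93. Differences are log2 fold changes from edgeR's quasi-likelihood test over all 56416 transcripts that reached 10 counts in 3 samples. Benjamini-Hochberg adjustment was over all of them, with a threshold of 0.05 on the adjusted p. The standard errors (SE) are not an output of that test. Each was worked back so that the squared ratio of log2 fold change to SE equals the test's F statistic, and is approximate. Of the 41 genes, 39 were tested, and Efna4 and Epha2 had too few counts.

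Of the 8 genes that differed from layer A in both layer B and layer C, 6 had a RefSeq promoter entry starting within 50 bases of the counted transcript. The 250 bases before the RefSeq start of these 6 are shown because they belong to the genes on which the comparisons turn. They are written 5′ to 3′ on the gene's strand, from GRCm38.p6. Capitals mark matches on either strand to the GC box (GGGCGG), the CCAAT box (CCAAT) and the TATA box (TATAAA), and no matches overlapped. The regions were chr8:8661243-8661492 (minus strand) for Efnb2, chr1:77515089-77515338 (minus) for Epha4, chr4:28812881-28813130 (plus) for Epha7, chr9:102354694-102354943 (minus) for Ephb1, chr5:137349859-137350108 (plus) for Ephb4 and chr5:47982905-47983154 (plus) for Slit2.
Efnb2: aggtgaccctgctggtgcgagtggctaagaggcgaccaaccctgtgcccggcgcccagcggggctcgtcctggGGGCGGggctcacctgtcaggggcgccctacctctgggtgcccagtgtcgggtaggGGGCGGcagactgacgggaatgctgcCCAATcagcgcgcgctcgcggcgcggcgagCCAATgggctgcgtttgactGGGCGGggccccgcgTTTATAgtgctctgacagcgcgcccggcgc
Epha4: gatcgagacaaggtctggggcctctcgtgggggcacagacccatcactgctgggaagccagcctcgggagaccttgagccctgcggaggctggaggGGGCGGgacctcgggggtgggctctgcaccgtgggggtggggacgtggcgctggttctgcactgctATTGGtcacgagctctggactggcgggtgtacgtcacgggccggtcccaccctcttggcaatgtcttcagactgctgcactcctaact
Epha7: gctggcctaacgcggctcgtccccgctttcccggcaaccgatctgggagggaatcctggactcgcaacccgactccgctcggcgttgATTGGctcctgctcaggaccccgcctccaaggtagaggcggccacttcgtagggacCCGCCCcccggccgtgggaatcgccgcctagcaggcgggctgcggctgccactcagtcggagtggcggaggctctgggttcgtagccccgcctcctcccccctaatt
Ephb1: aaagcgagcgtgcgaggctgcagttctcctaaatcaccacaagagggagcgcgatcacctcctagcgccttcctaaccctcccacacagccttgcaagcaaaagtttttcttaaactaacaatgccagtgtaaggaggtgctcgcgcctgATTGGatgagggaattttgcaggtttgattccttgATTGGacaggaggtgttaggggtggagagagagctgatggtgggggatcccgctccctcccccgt
Ephb4: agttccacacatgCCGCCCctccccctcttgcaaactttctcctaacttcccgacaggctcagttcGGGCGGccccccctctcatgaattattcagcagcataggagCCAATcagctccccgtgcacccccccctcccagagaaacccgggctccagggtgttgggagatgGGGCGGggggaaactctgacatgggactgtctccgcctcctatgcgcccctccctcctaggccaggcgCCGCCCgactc
Slit2: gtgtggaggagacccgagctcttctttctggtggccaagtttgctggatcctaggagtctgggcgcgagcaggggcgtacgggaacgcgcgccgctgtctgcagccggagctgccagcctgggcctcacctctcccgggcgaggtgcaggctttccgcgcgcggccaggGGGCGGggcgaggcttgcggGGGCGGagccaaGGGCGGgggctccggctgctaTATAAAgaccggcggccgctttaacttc
GC content was 72% for Efnb2, 66% for Epha4, 69.2% for Epha7, 64% for Ephb4 and 69.6% for Slit2, against a median of 52.4% over 32851 promoters of the same length. Ephb1, at 54%, was closest to that median. The GC box was found 4 times in Ephb4, 3 times in Efnb2 and Slit2, once in Epha4 and Epha7, and was not found in Ephb1, and 32.7% of all promoters held it. CCAAT was found in every one of these windows other than that of Slit2, and in 33.8% of all promoters. TATAAA was found in Efnb2 and Slit2 and in 12.4% of all promoters. CATCTG, an E-box that proneural factors can bind, had no match in the 6 windows and was held by 14.4% of all promoters. These matches are letters in a window and were not tested as sites.

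In the comparison of layers A and B, 16 of the 39 genes passed, against 16.5% of all tested transcripts. Such shares, here and below, are over all transcripts, minor ones of each gene included. With only the highest transcript of each annotated gene kept, beside unannotated ones, 16 guidance genes passed, against 5006 of 22263 tested transcripts. Higher in layer B were 11 genes: the receptors Epha3, Epha4, Epha6 and Epha7, the ligands Efna3 and Efnb2, all 3 Slits, and Unc5a and Unc5d, where 5.83% of all tested transcripts passed in that direction. Higher in layer A were 5 genes: Ephb1, Ephb4, Ntn1, Ntn4 and Rgma, where 10.7% of all tested transcripts passed. An unadjusted p under 0.05 was found for 20 genes, against 29% of all tested transcripts. The median log2 fold change of layer A over layer B was -0.70 over the 39 genes and -0.12 over all tested transcripts. In 15 genes every layer B sample was above every layer A sample, and in 6 genes every layer A sample was above, against 15.1% and 17.2% of all tested transcripts. In dissected tissue of mixed cells, fewer cells of a type and less RNA per cell cannot be told apart.

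In the comparison of layers A and C, 8 of 39 passed, against 11.3% of all tested transcripts. Higher in layer C were Epha4, Epha7, Efnb2, Slit2, Slit3 and Unc5d (4.35% of all tested transcripts passed in that direction), and higher in layer A were Ephb1 and Ephb4 (6.98% passed). An unadjusted p under 0.05 was found for 17 genes (24.5% of all tested transcripts). The median log2 fold change of layer A over layer C was -0.59 over the 39 genes and -0.01 over all tested transcripts. Every layer C sample was above every layer A sample in 14 genes and below in 5, against 14.5% and 17% of all tested transcripts. Both comparisons use the same 3 layer A samples, so a gene that passed in both was not found independently in each. A joint test of any difference among the 3 layers called 14 of the 39 genes, against 14.3% of all tested transcripts.

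**Figure D1:**
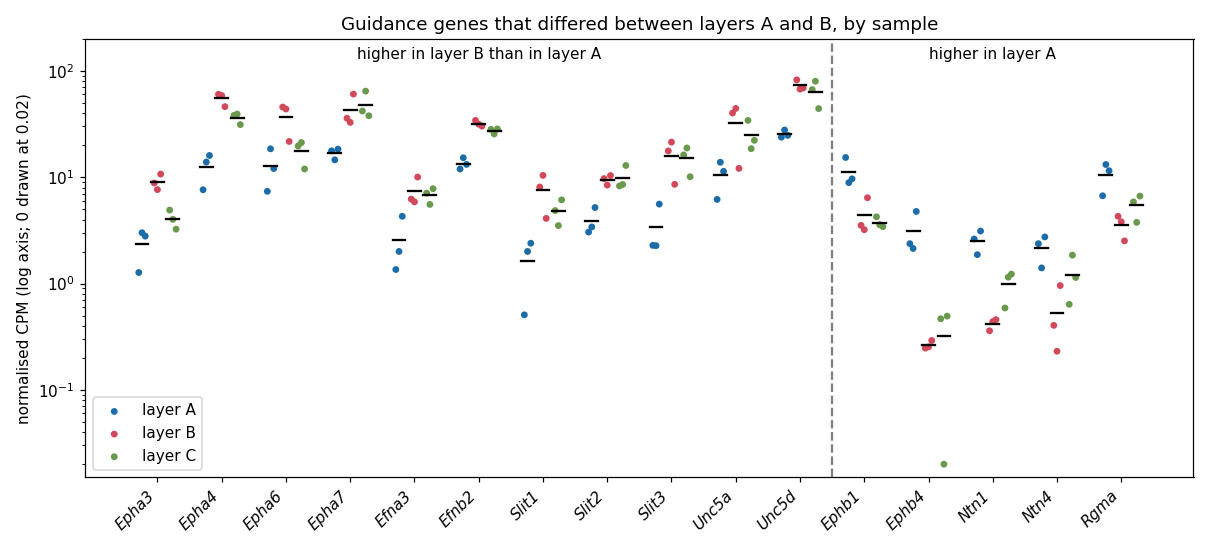
Normalised CPM on a log axis of the 16 genes that differed between layers A and B, with 1 point per sample (blue layer A, red layer B, green layer C), black lines for layer means and a 0 in layer C replicate 2 of Ephb4 drawn at 0.02. Layer A is the lowest of the 3 layers on average in the 11 genes to the left of the dashed line and the highest in the 5 genes to the right.

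Among the 9 EphA receptors, of which 8 were tested, 4 passed as higher in layer B than in A, 2 of these also as higher in C, and none passed as higher in layer A. Epha4, the receptor that binds both ephrin classes, was counted on ENSMUST00000027451 (chr1:77367185-77515088, minus strand, GRCm38). Its normalised CPM were 7.62, 13.9 and 16.0 in layer A, 60.3, 58.7 and 46.1 in B and 38.1, 39.3 and 31.2 in C. The layers did not overlap in any pair, in the order A, C, B. The log2 fold change of layer A over layer B was -2.13 (SE 0.323, adjusted p = 0.000604, edgeR) and of layer A over layer C -1.53 (SE 0.317, adjusted p = 0.00802). The difference of layer B over layer C, 0.60, had an unadjusted p of 0.0693.

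Epha7, a receptor known from cortical and thalamocortical map formation, was counted on ENSMUST00000029964 (chr4:28813131-28967499, plus strand). Its CPM were 17.7, 14.6 and 18.4 in layer A, 35.8, 32.8 and 60.5 in B and 41.9, 64.5 and 37.9 in C, so that layer A lay below both others and layers B and C overlapped. Relative to layer B, the log2 fold change of layer A was -1.35 (SE 0.327, adjusted p = 0.0104, edgeR) and relative to layer C -1.51 (SE 0.328, adjusted p = 0.00989). Without layer A replicate 2 the adjusted p was 0.054 against layer B and 0.0504 against layer C. Without layer C replicate 1 that of Epha4 against layer C was 0.0503.

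Epha3 (ENSMUST00000064405, chr16:63543534-63864158, minus strand) had CPM of 1.27, 3.01 and 2.79 in layer A, 8.83, 7.64 and 10.7 in B and 4.91, 4.02 and 3.25 in C. Each layer C value lay between the ranges of the other layers. The log2 fold change of A over B was -1.92 (SE 0.397, adjusted p = 0.00416, edgeR), while layer A over layer C, -0.76, did not pass (adjusted p = 0.252). Epha6 (ENSMUST00000068860, chr16:59653483-60605248, minus strand) is among the EphA receptors found mainly in the nervous system. Its CPM were 7.37, 18.5 and 12.1 in layer A, 45.7, 43.8 and 21.7 in B and 19.6, 21.2 and 11.9 in C. Layer A over layer B was -1.55 (SE 0.396, adjusted p = 0.0139, edgeR), with layer B replicate 3 below the other layer B samples but above all of layer A. That call was lost without layer A replicate 1 (adjusted p = 0.0718), layer A replicate 3 (0.0508) or layer B replicate 1 (0.0669). Layer A over layer C of Epha6 was -0.47 (adjusted p = 0.518).

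Epha5 is a receptor for ephrin-A ligands with a long record in forebrain mapping. It had the highest level per length of the 41 genes on average over the 9 samples and was not called in any pair. It was called between layers A and B when 10 counts were required in all 9 samples, and 3 of its 9 other tested transcripts were called there. Its CPM were 36.3, 27.1 and 19.5 in layer A, 43.6, 40.6 and 61.4 in B and 39.6, 42.9 and 32.9 in C, and layer A over layer B was -0.82 (SE 0.307, adjusted p = 0.0851, edgeR). All layer B values were above those of layer A. Epha10, whose kinase domain lacks activity, was at -1.25 for layer A over layer B (adjusted p = 0.0845). Epha1, Epha8 and Epha2 were at mean levels of 0.366, 0.275 and 0.492 CPM in layer A, close to the floor. Epha2 was not tested, and its layer A samples were all above those of layers B and C. Epha1 and Epha8 had log2 fold changes of layer A over B of 0.66 and 0.98 that did not pass.

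Of the 5 EphB receptors, 2 passed as higher in layer A than in both other layers. Ephb1, a neuronal receptor known for guiding retinal axons to the same side of the brain, was counted on ENSMUST00000035129 (chr9:101922128-102354693, minus strand). It measured 15.3, 8.88 and 9.65 CPM in layer A, 3.53, 3.21 and 6.41 in B and 4.25, 3.57 and 3.42 in C, and layer A did not overlap with either. Its log2 fold change was 1.36 over layer B (SE 0.379, adjusted p = 0.0223, edgeR) and 1.59 over layer C (SE 0.383, adjusted p = 0.016). Against layer B the call was lost without layer A replicate 1 (adjusted p = 0.11), layer B replicate 1 (0.0917) or layer B replicate 2 (0.0815). Against layer C it was lost without layer A replicate 1 (0.0764) or any of layer C replicates 1, 2 and 3 (0.0731, 0.054 and 0.0502).

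Ephb4, the receptor of venous endothelium, had the largest fold change of the 39 genes in both comparisons (ENSMUST00000061244, chr5:137350109-137374528, plus strand). It had 28, 32 and 191 counts in layer A, 11, 11 and 14 in B and 19, 0 and 58 in C. On the CPM scale these were 2.37, 2.14 and 4.76 in layer A, 0.247, 0.254 and 0.291 in B and 0.466, 0 and 0.494 in C. Every layer A sample was above every other sample. Relative to layer B, the log2 fold change of layer A was 3.55 (SE 0.698, adjusted p = 0.0031, edgeR) and relative to layer C 3.10 (SE 0.679, adjusted p = 0.0101). Against layer C the call was lost without layer A replicate 3 (adjusted p = 0.0507) or layer C replicate 1 (0.0527). The other EphB receptors gave log2 fold changes of layer A over layer B of -0.24 for Ephb2, -0.83 for Ephb3 and -0.68 for Ephb6, and none of these passed.

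Markers of other cell types moved with layer A. All 9 endothelial markers were above layers B and C in every layer A sample, with 9 past the threshold against B and 8 against C, and their summed level was 116.7 to 145.6 CPM in layer A, 8.244 to 21.98 in B and 16.88 to 27.8 in C. All 8 pericyte and smooth muscle markers passed the test as higher in layer A in both comparisons, with sums of 236.8 to 389.2, 16.94 to 59.8 and 47.24 to 67.35 CPM in layers A, B and C (Acta2 was at 0 in some samples). All 9 meningeal markers passed as higher in layer A in both, with sums of 76.42 to 192.9, 1.316 to 8.055 and 4.401 to 6.857 CPM, and Slc6a13, Fmod and Aldh1a2 were at 0 in some samples. All 10 astrocyte markers passed as higher in both, with sums of 4910 to 10410, 681.8 to 1133 and 1213 to 1666 CPM. The 8 microglial markers all had positive log2 fold changes of layer A over B and over C, of which 6 and 5 passed, with sums of 101.8 to 132.3, 15.7 to 39.63 and 36.02 to 52.27 CPM. The 5 oligodendrocyte precursor markers were likewise all positive, with 5 and 2 past the threshold, with sums of 75.64 to 119.3, 14.76 to 21.15 and 34.06 to 46.38 CPM.

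Of 10 mature oligodendrocyte markers, 10 had a positive log2 fold change of layer A over B, of which 2 passed, and 3 had one over C, of which 0 passed (edgeR, with 3 and 0 at an unadjusted p under 0.05), with sums of 195.8 to 315.3, 48.31 to 242.4 and 156.1 to 549.6 CPM. Of 8 glutamatergic markers, 7 had negative log2 fold changes of layer A in each comparison, of which 3 passed, and 1, Camk2a, passed as higher in layer A. Camk2a measured 4131, 2672 and 2126 CPM in layer A, 740.1, 881.8 and 813.8 in B and 1325, 1289 and 751.1 in C, and it made up most of the summed level of this list, with sums of 2353 to 4249, 1209 to 1307 and 1137 to 1708 CPM (Emx1 at 0 in some samples). Of 10 GABAergic markers, 5 had positive log2 fold changes of layer A over B, of which 2 passed, and 7 had negative ones over C, of which 2 passed, with sums of 329 to 616.8, 116.2 to 366.7 and 316 to 434.9 CPM (Pvalb at 0 in some samples). No list had a marker at 0 in every sample. The part of cell composition in the differences of Ephb1, Ephb4, Ntn1, Ntn4 and Rgma, or in those of the genes lower in layer A, was not tested.

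Among the ephrin ligands, Efnb2, the transmembrane ligand that marks arteries in vessels and is also made by neurons, was counted on ENSMUST00000001319 (chr8:8617434-8661242, minus strand). Its CPM were 11.9, 15.2 and 13.2 in layer A, 34.2, 31.5 and 30.2 in B and 28.2, 25.5 and 28.5 in C. All 3 layers were separate from each other, with small spread within each. The log2 fold change of A over B was -1.25 (SE 0.271, adjusted p = 0.00551, edgeR) and relative to layer C -1.03 (SE 0.27, adjusted p = 0.0237). Efnb2 and Ephb4, its receptor in vessels, thus differed in opposite directions. The call against layer C was lost without layer A replicates 1, 2 or 3 (adjusted p = 0.0839, 0.056 and 0.0577) or layer C replicates 1 or 3 (0.111 and 0.0647).

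Efna3, a lipid-anchored ligand present on astrocytes and neurons, was counted on ENSMUST00000029673 (chr3:89313899-89322965, minus strand) within a cluster with Efna1 and Efna4. It measured 1.35, 2.00 and 4.29 CPM in layer A, 6.22, 5.87 and 10.03 in B and 7.09, 5.55 and 7.80 in C, with layer A below both. Layer A over layer B was -1.49 (SE 0.433, adjusted p = 0.0277, edgeR), and layer A over layer C, -1.38, just missed the threshold (adjusted p = 0.0519). The call against layer B was lost without layer A replicate 1 (adjusted p = 0.114), layer A replicate 2 (0.112), layer B replicate 3 (0.0639) or layer C replicate 1 (0.0502), and when only layers A and B were fitted (0.0652). Of its exonic bases, 14.56% overlap Gm15998 on the opposite strand, and the libraries did not keep strand. Efnb3, the ephrin-B of axon midline repulsion, had CPM of 3.39, 6.55 and 8.88 in layer A, 8.87, 9.54 and 12.5 in B and 12.2, 6.63 and 16.5 in C and passed no test. Efna1, Efna2, Efna5 and Efnb1 also passed none, with log2 fold changes of layer A over layer B of 0.58, -0.39, -0.21 and -0.78. Efna4 had at most 8 counts in any sample.

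All 3 Slits were lower in layer A than in B, and Slit2 and Slit3 also lower than in C. Slit3 (ENSMUST00000069837, chr11:35121224-35708507, plus strand) had CPM of 2.29, 2.27 and 5.59 in layer A, 17.7, 21.4 and 8.58 in B and 16.2, 18.8 and 10.1 in C. Replicate 3 was the highest of its group in layer A and the lowest in layers B and C, and layer A still did not overlap with the others. Relative to layer B, the log2 fold change of layer A was -2.20 (SE 0.452, adjusted p = 0.0041, edgeR) and over layer C -2.12 (SE 0.452, adjusted p = 0.00924). Of the 8 genes called against layer C, Slit3 alone passed with every sample left out in turn. The margin was narrow, since its highest adjusted p among these fits was 0.05 after rounding (edgeR).

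Slit2 (ENSMUST00000170109, chr5:47983154-48305511, plus strand) measured 3.05, 3.41 and 5.19 CPM in layer A, 9.70, 8.43 and 10.4 in B and 8.27, 8.55 and 12.9 in C. Layers B and C overlapped, and both lay above layer A. Its log2 fold changes were -1.28 (SE 0.349, adjusted p = 0.0202, edgeR) for layer A over layer B and -1.34 (SE 0.35, adjusted p = 0.0229) for layer A over layer C. Against layer B the call was lost without layer A replicate 1 (adjusted p = 0.085), layer A replicate 2 (0.0831) or layer B replicate 1 (0.0717). Against layer C it was lost without layer A replicates 1 or 2 (0.0908 and 0.0913) or layer C replicates 1 or 3 (0.068 and 0.0966).

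Slit1, the Slit most restricted to the nervous system, was counted on ENSMUST00000169141 (chr19:41600257-41743492, minus strand). It had CPM of 0.508, 2.00 and 2.39 in layer A, 8.09, 10.4 and 4.10 in B and 4.86, 3.51 and 6.12 in C, with layer A below both. The log2 fold change of A over B was -2.15 (SE 0.512, adjusted p = 0.00952, edgeR), and layer A over layer C, -1.52, did not pass (adjusted p = 0.0659).

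The Robo receptors of the Slits were not called in any pair, while Robo2 was called between layers A and B with 10 counts required in all 9 samples or without layer B replicate 3. Robo2 had CPM of 33.9, 25.7 and 25.3 in layer A, 55.7, 48.3 and 41.4 in B and 40.1, 49.9 and 35.4 in C, with layer A below both and an adjusted p of 0.072 against layer B (log2 fold change -0.78, edgeR). Robo1 had 24.1, 18.0 and 15.4 CPM in layer A, 14.8, 17.6 and 9.47 in B and 15.8, 15.6 and 12.2 in C, with a log2 fold change of 0.46 for layer A over layer B. Robo3, the divergent Robo of commissural axons, was at 0 to 0.449 CPM in layer A and reached 2.81 in layer C replicate 2.

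Ntn1 and Ntn4 were higher in layer A than in B, and Ntn3 was not called. Ntn1, netrin-1, the classical ligand of Dcc, was counted on ENSMUST00000021284 (chr11:68209364-68386826, minus strand) with 31, 28 and 125 counts in layer A, 16, 19 and 22 in B and 24, 18 and 144 in C. Its CPM were 2.62, 1.87 and 3.12 in layer A, 0.359, 0.439 and 0.458 in B and 0.589, 1.15 and 1.23 in C. The layers were separate in all 3 pairs, in the order B, C, A. Layer A over layer B was 2.60 (SE 0.493, adjusted p = 0.00252, edgeR), and layer A over layer C, 1.37, did not pass (adjusted p = 0.0761).

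Ntn4, a netrin of basement membranes that binds laminin, was counted on ENSMUST00000020204 (chr10:93641049-93747207, plus strand). It had CPM of 2.37, 1.40 and 2.74 in layer A, 0.404, 0.231 and 0.958 in B and 0.638, 1.85 and 1.14 in C, and layer A overlapped with layer C only. Relative to layer B, the log2 fold change of layer A was 2.03 (SE 0.596, adjusted p = 0.0291, edgeR), and layer A over layer C was 0.89 (adjusted p = 0.39). The call was lost without layer A replicates 1 or 3 (adjusted p = 0.0802 and 0.0926) or layer B replicates 1 or 2 (0.0995 and 0.0989). Ntn3 had a log2 fold change of -0.50 for layer A over layer B.

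The netrin receptors split by member. Unc5d, a repulsive receptor known from migrating cortical neurons that also binds Flrt proteins, was counted on its single transcript, ENSMUST00000168630 (chr8:28646717-29219636, minus strand). It measured 23.8, 27.8 and 24.7 CPM in layer A, 82.3, 67.4 and 69.1 in B and 66.7, 79.9 and 44.2 in C, and layer A lay below both. The log2 fold change of A over B was -1.52 (SE 0.292, adjusted p = 0.0027, edgeR) and over layer C -1.32 (SE 0.291, adjusted p = 0.0105), the latter lost without layer C replicate 1 (adjusted p = 0.0622).

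Unc5a (ENSMUST00000026994, chr13:54949411-55006018, plus strand), a receptor also linked to cell death in the absence of netrin, had CPM of 6.18, 13.8 and 11.3 in layer A, 40.1, 44.3 and 12.1 in B and 34.2, 18.6 and 22.2 in C. Layer B replicate 3 fell within the range of layer A, so the groups overlapped, and the SD of layer B was 17.5 around a mean of 32.2. Layer A over layer B was -1.62 (SE 0.453, adjusted p = 0.0227, edgeR), and layer A over layer C was -1.25 (adjusted p = 0.0881). The call was lost without layer A replicates 1 or 3 (adjusted p = 0.111 and 0.0605) or layer B replicates 1 or 2 (0.0842 and 0.0882), and in a fit of layers A and B alone (0.0514).

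Unc5c had CPM of 33.5, 27.9 and 26.4 in layer A, 26.4, 27.6 and 29.9 in B and 18.4, 21.1 and 26.4 in C, and its log2 fold change of layer A over layer B was 0.07 (SE 0.275). Unc5b, a receptor known from vascular endothelium as well as axons, was at 1.09 for layer A over layer B (adjusted p = 0.222, edgeR). Neo1 had CPM of 56.6, 36.9 and 33.3 in layer A, 40.2, 40.5 and 40.2 in B and 30.9, 32.2 and 32.7 in C, with 0.07 for layer A over layer B (SE 0.28). Dcc was at -0.80 over layer B and -1.04 over layer C (adjusted p = 0.244 and 0.151), and its layer C samples were all above those of layer A.

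Rgma, the neogenin ligand first known as a repellent of retinal axons, was counted on ENSMUST00000094312 (chr7:73375520-73419899, plus strand). Its CPM were 6.69, 13.2 and 11.5 in layer A, 4.29, 3.81 and 2.52 in B and 5.86, 3.76 and 6.64 in C, all below layer A. Relative to layer B, the log2 fold change of layer A was 1.56 (SE 0.387, adjusted p = 0.0117, edgeR), lost without layer A replicate 2 (0.0549), and layer A over layer C was 0.94 (adjusted p = 0.135). Rgmb had log2 fold changes of -0.19 over layer B and -0.13 over layer C.

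**Figure D2:**
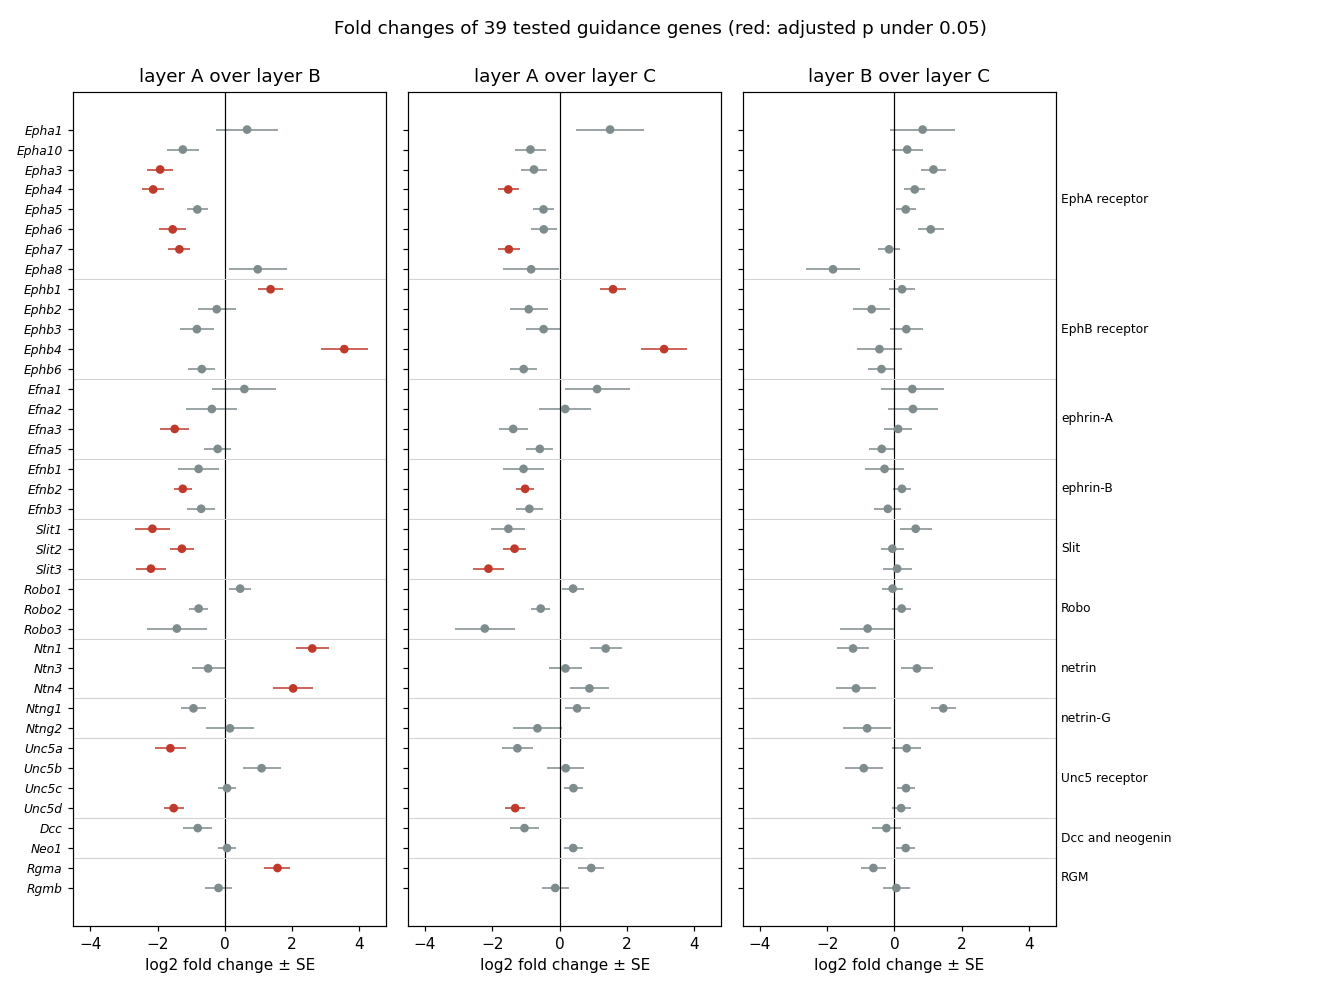
Log2 fold changes with SE bars of the 39 tested genes, grouped by family, for layer A over layer B, layer A over layer C and layer B over layer C, with genes past the adjusted threshold in red. The SE were worked back from the F statistics and are approximate. There are 16 red genes in the first panel, 8 in the second and 0 in the third, and each of the 8 has the same sign in the first panel.

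Between layer B and layer C, 0 of the 39 genes passed with edgeR, and 0% of all tested transcripts did. Layer B here includes replicate 3, which correlated more with the layer C samples than with its own group. Without that sample, 0 guidance genes and 0.0305% of all tested transcripts passed. Unadjusted p-values under 0.05 were found for 5 genes, against 4.11% of all tested transcripts, and DESeq2 called 1 gene, Ntng1. Every layer B sample was above every layer C sample in 6 genes and below in 3, against 3.92% and 4.67% of all tested transcripts. Ntng1, netrin-G1, whose partner is Lrrc4c, was counted on ENSMUST00000156177 (chr3:109780040-110143004, minus strand). It measured 4.49, 4.01 and 8.55 CPM in layer A, 13.0, 10.1 and 9.78 in B and 3.61, 3.70 and 4.65 in C, with layer B above all other samples. Its log2 fold change of layer B over layer C was 1.45 (unadjusted p = 0.00125, edgeR adjusted p = 0.541, DESeq2 adjusted p = 0.0454). In the joint test of the 3 layers it had an adjusted p of 0.0289. The 9 other tested transcripts of Ntng1 had log2 fold changes of layer B over layer C of 0.92 to 1.51, and 0 were called. The separation of layer B did not hold on all of them. On ENSMUST00000072596, layer B had 526, 460 and 137 counts, and layer C replicate 1 had 192.

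The log2 fold changes of layer B over layer C of Epha3 and Epha6, which did not pass the adjusted threshold, were 1.16 (unadjusted p = 0.00814) and 1.08 (unadjusted p = 0.0141), with every layer B sample above layer C. Ntn1 and Epha8 were at -1.23 (unadjusted p = 0.022) and -1.82 (unadjusted p = 0.0397), and Epha8 had only 3 to 9 counts in layer B and 13 to 34 in layer C. Ntng2, netrin-G2, which pairs with Lrrc4, varied widely within layer C, with CPM of 3.31, 1.28 and 12.1, against 2.88, 4.08 and 3.79 in layer A and 3.98, 5.17 and 0.562 in layer B, and passed no test.

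**Figure D3:**
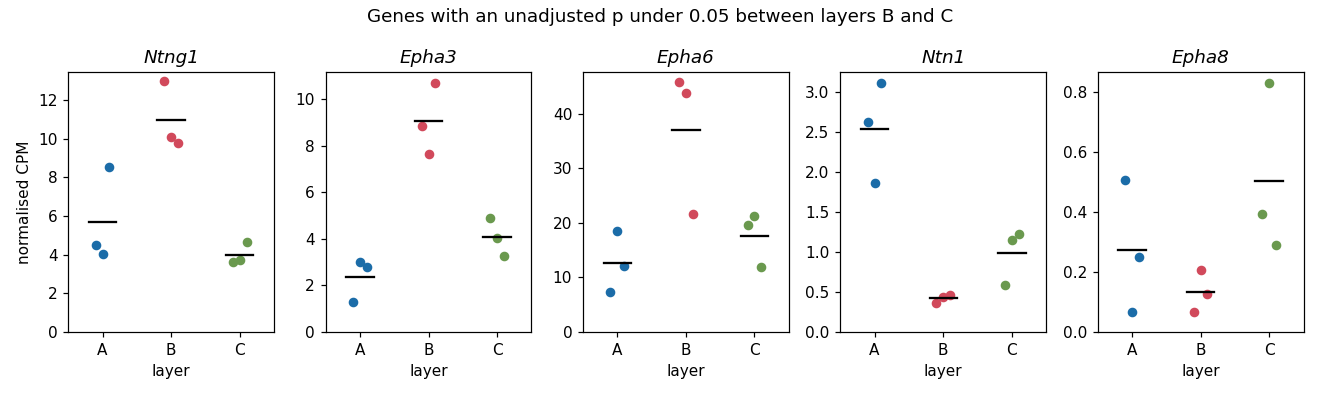
Normalised CPM per sample, on linear axes from 0, of the 5 genes with an unadjusted p under 0.05 between layers B and C, with black lines for layer means. Layers B and C do not overlap in any of the 5, and none passed the adjusted threshold with edgeR.

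To compare genes with each other, CPM were divided by the transcript's exonic length in kilobases. On this scale Epha5 had the highest mean over the 9 samples (7.39), followed by Unc5d (5.86), Epha6 (5.71), Unc5a (5.64), Epha4 (5.47), Epha7 (5.34), Neo1 (5.17), Efnb2 (5.07) and Robo2 (4.60). Neighbours from Unc5d to Efnb2 in this order were closer than the spread within a layer of genes such as Epha6, at 9.43 ± 3.40 (SD, n = 3) in layer B. Epha5 was not first in every layer, with means of 5.35 against 5.73 for Neo1 in layer A and 9.39 against 9.43 for Epha6 in B. The lowest were Epha2, Efna4, Epha8, Ephb2 and Epha1, all under 0.08. The netrins Ntn1 (0.229), Ntn3 (0.279) and Ntn4 (0.358) were in the range of the lowest receptors of the pathway, Unc5b (0.306) and Dcc (0.433). This order depends on the length of the chosen transcript. Ephb2 was counted on 10902 bases (mean count 40.6), and another of its transcripts had 4804 bases (38.3). Dcc was counted on 10323 bases (202.9), and another of its transcripts had 4855 bases (182.6).

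**Figure D4:**
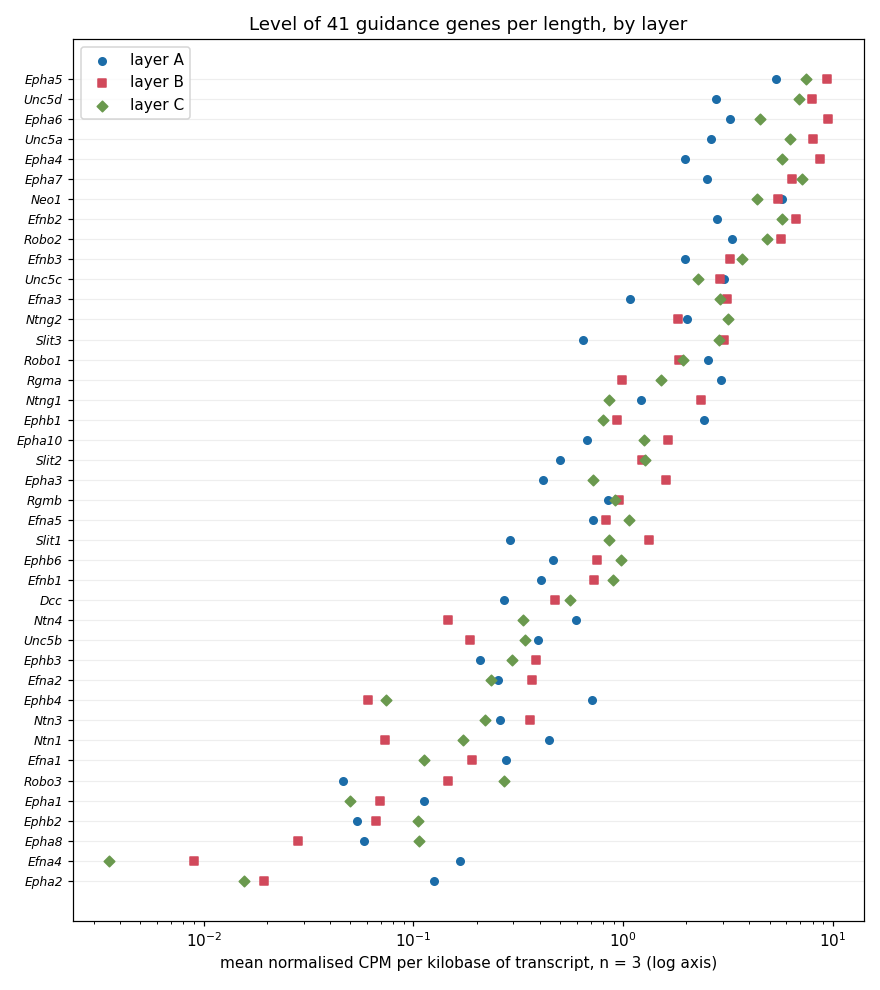
Mean level of the 41 genes per kilobase of transcript on a log axis, ordered by the mean over all 9 samples, with circles for layer A, squares for layer B and diamonds for layer C. Epha5 is at the top with 7.39, and the genes at the bottom, Efna4 and Epha2, were too low to be tested.

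Summed over each family on the per-length scale, the 9 EphA receptors came to 14.4 ± 1.20 (SD, n = 3) in layer A, 37.2 ± 0.859 in B and 26.9 ± 5.12 in C. The 5 EphB receptors came to 3.86 ± 0.595, 2.20 ± 0.336 and 2.25 ± 0.397, in the opposite order of layer A and the others. Ephb1 and Ephb4 alone gave that order, and Ephb2, Ephb3 and Ephb6 were lower on average in layer A than in layers B and C. The 3 ephrin-B ligands came to 5.18 ± 1.35, 10.6 ± 0.238 and 10.3 ± 1.58, and the 3 Slits to 1.44 ± 0.645, 5.59 ± 1.71 and 5.01 ± 0.324. In each of these 4 families the layer A samples did not overlap with those of layers B or C. The 3 Robos (5.88 ± 1.10, 7.64 ± 1.22 and 7.06 ± 1.34) and the sum of Dcc and Neo1 (6.00 ± 1.69, 5.94 ± 0.275 and 4.89 ± 0.215) overlapped between layers A and B. The netrins were at 1.30 ± 0.293, 0.579 ± 0.0292 and 0.724 ± 0.188, and the Unc5 receptors at 8.80 ± 0.905, 19.1 ± 4.61 and 15.8 ± 2.05. These sums are descriptions and were not tested.

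**Figure D5:**
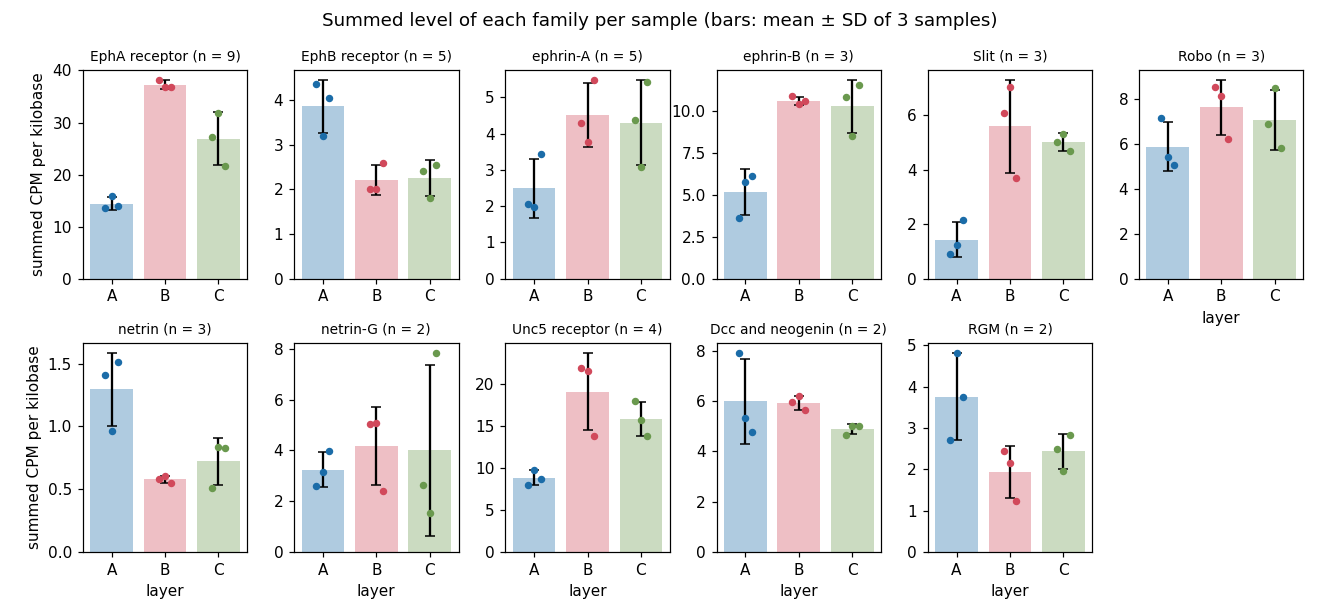
Level per kilobase summed over the genes of each family, with 1 point per sample, bars for the mean of 3 samples per layer, error bars for the SD and axes from 0. The sums of EphA receptors, ephrin-B ligands, Slits and Unc5 receptors are lowest in layer A, and those of EphB receptors and netrins are highest there, without overlap of samples. Mean sums of ephrin-A ligands, Robos and netrin-G proteins are also lowest in layer A. Those of Rgma with Rgmb and of Dcc with Neo1 are also highest in layer A, but in these families samples overlap. The EphB sum is highest in layer A through Ephb1 and Ephb4 alone.

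Several transcripts of a gene share exons, so their counts are not independent, and for 12 of the 41 genes the second transcript had a mean count within 10% of the first (for 3, Ephb4, Ntn1 and Robo3, the same). Of the 16 genes called between layers A and B, 12 had other tested transcripts, and all 49 of those had the sign of the chosen one, 27 of them past the threshold. Against layer C, 6 of the 8 called genes had others, all 33 with the same sign and 19 past the threshold. Besides Efna3, exonic bases shared with an opposite-strand gene were 7.11% of Rgma, 3.26% of Ephb1, 2.72% of Epha6 and 0.851% of Unc5a.

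Partners and signalling genes of the same pathways, a list of 41 genes outside the families above, were all tested. Between layers A and B, 13 passed (16.5% of all tested transcripts), 4 higher in layer A (10.7%) and 9 higher in layer B (5.83%). With only the highest transcript of each annotated gene kept, beside unannotated ones, 5006 of 22263 tested transcripts passed in this pair. Between layers A and C 8 passed (11.3%), 2 higher in layer A (6.98%) and 6 in layer C (4.35%). Between layers B and C 0 passed with edgeR, with 8 at an unadjusted p under 0.05 (4.11% of all tested transcripts). Among the 13 ligands, receptors and partners, 6 passed against layer B, among the 25 cytoplasmic genes 6, and among the 3 proteases 1. The list's median log2 fold change was -0.45 for layer A over layer B and -0.31 for layer A over layer C, against -0.12 and -0.01 over all tested transcripts.

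Among those higher in layer A were Dock1, a Rac activator downstream of netrin receptors, Robo4, the endothelial Robo, and Enah, an actin regulator. Dock1 measured 26.5, 19.8 and 19.1 CPM in layer A, 2.54, 2.70 and 3.79 in B and 4.76, 3.32 and 5.46 in C, with log2 fold changes of 2.85 (SE 0.353, adjusted p = 0.000227, edgeR) over layer B and 2.26 (SE 0.344, adjusted p = 0.00219) over layer C. Robo4 was at 2.66 and 2.29 (adjusted p = 0.00628 and 0.0204). Enah was called against layer B and not against layer C, at 1.21 over layer B (adjusted p = 0.011).

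Higher in layer B were Chn1, whose chimaerin proteins inactivate Rac and act downstream of Epha4, Pak1, a kinase activated by Rac, Tiam1, a Rac activator, and Lrrc4c, the netrin-G1 ligand. Chn1 measured 90.9, 127 and 153 CPM in layer A, 464, 354 and 610 in B and 437, 379 and 273 in C, with no overlap between layer A and the others. Its log2 fold changes were -1.94 (SE 0.321, adjusted p = 0.00104, edgeR) for layer A over layer B and -1.55 (SE 0.318, adjusted p = 0.00757) over layer C. Pak1 was at -1.28 and -1.34 (adjusted p = 0.00536 and 0.00781), and Lrrc4c at -1.59 and -1.46 (adjusted p = 0.00609 and 0.0158). Tiam1 was called against layer B alone (-1.55, adjusted p = 0.00544), and Dscam, a netrin receptor, against layer C alone (-1.28, adjusted p = 0.0117).

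Leaving out a single sample changed these counts, and the share of all tested transcripts called, given here in parentheses, moved with them. Without layer A replicate 1, 10 guidance genes were called between layers A and B (9.92%) and 5 between layers A and C (4.85%). Against layer C, 5 genes passed without layer A replicate 2 (5.78%), 2 without layer C replicate 1 (2.45%), 5 without layer C replicate 3 (9.07%) and 13 without layer B replicate 3 (17.5%). Without layer B replicate 3, which stood apart from its group, 18 genes passed between A and B (20.4%) and 18 in the joint test (20.3%). The joint test called 6 without layer A replicate 1 (7.25%), 8 without layer A replicate 2 (8.4%) and 9 without layer B replicate 1 (11.1%). Of the list of partners, 7 passed against layer B without layer A replicate 1 (9.92%) and 8 without layer B replicate 1 (10.4%). Against layer C, 5 of that list passed without layer A replicate 1 (4.85%), 4 without layer A replicate 2 (5.78%), 5 without layer A replicate 3 (9.16%) and 1 without layer C replicate 1 (2.45%). Between layers A and B the calls of Efnb2, Epha3, Epha4, Ephb4, Ntn1, Slit1, Slit3 and Unc5d passed with each of the 9 samples left out in turn, and no call changed sign.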

How the data were processed

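The authors amplified the RNA with the Ovation system, prepared libraries that do not keep strand and aligned reads to the mm10 genome with Bowtie. The submitters' processing notes also name bcl2fastq 1.8.4 and HTSeq 0.5.3. The deposited values are raw counts per Ensembl transcript, 1 table per sample. The Ensembl release and the treatment of reads shared by transcripts are not given in the sources used here, so isoforms of a gene cannot be told apart.

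Gene symbols and positions came from GENCODE for GRCm38, which held 82807 of 95533 (86.68%). After TMM scaling the counts were fitted in edgeR 4.0.16 (R 4.3.3; quasi-likelihood F-test, Benjamini-Hochberg adjustment), with layer as the only factor and all 9 samples. The procedure was tested on simulated data with the same mix of transcripts in all layers, apart from a set raised in layer A. That test does not cover the layers' difference in mitochondrial share or changes in genes near the floor. Alternatives were other scalings and filters, DESeq2 1.42.0, the replicate number as a block, sums by gene and samples left out. The members, lists and markers were chosen with earlier results of these data known. Values per sample are given for genes called in any pair and the 8 uncalled genes of highest level per length. Partner genes are named if called, at most 4 per direction and pair by smallest p. One of these is not reported here. Promoters are RefSeq entries, found for 35 of 41 genes.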

Additional observations from a re-analysis of the deposited data

How the results depend on the processing

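Scaling, filter, tool, block, summing or the layers fitted were changed in turn. Then 14 to 17 guidance genes were called for A against B (16 in the report) and 8 to 11 for A against C (8). The joint test called 13 to 17 (14), and no call changed sign. For A against B, 9329 of 56416 tested transcripts were called in the report. With only the 2 layers fitted, 7347 of 55459 were called (14 guidance genes), and with DESeq2 11679 of 56416 (17). Between layers B and C, DESeq2 called 1 gene, Ntng1 (log2 fold change 1.44), where edgeR called 0, and the cause was not tested. Among genes that stayed in the test, the 2 calls lost outside the left-out samples were Efna3 and Unc5a, when only layers A and B were fitted. The list of partners gave 10 to 14 calls (13) and 7 to 9 (8). Leaving out 1 sample at a time, the ranges were 10 to 18, 2 to 13 and 6 to 18 for the guidance genes and 7 to 14 and 1 to 8 for the partners.

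The layers share replicate numbers, but 4 of the 9 same-number pairs correlated over 0.1 (range -0.186 to 0.243), so the numbers were not taken as a pairing. With the replicate block, 16 guidance genes were called for A against B, where 9184 of 56416 tested transcripts were called. For A against C there were 9, for B against C 0 and in the joint test 15, with 11 and 7 partners. A filter of 10 counts in every sample left 29 guidance genes to test and removed Ephb4 and Slit1, while Epha5 and Robo2 were added between layers A and B. DESeq2 added Epha10 there. Low depth outside mitochondrial transcripts in layer A limits genes near the floor, such as Epha1, Epha8 and Robo3.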
